A study of Mus musculus with 6 samples.

Results

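H3K9ac was compared between intestinal epithelial cells of conventionally housed mice, which carry a normal microbiota, and of germ-free mice, which carry none. The comparison used 4 of the 6 libraries of the series: the 2 titled for conventional housing (CNV) and the 2 titled germ-free (GF), each with replicate numbers 1 and 2. All 4 came from the distal intestine of C57BL/6 mice, with no other treatment or allele named, and differed by housing alone as far as the labels say. The other 2 libraries came from mice colonized with E. coli alone and are mentioned only where they bear on a place called here. The labels do not tell whether the libraries of a group stem from different animals, and their spread may be technical only.

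Acetylation of lysine 9 on histone H3 is placed by acetyltransferases, removed by histone deacetylases and read by proteins with bromodomains or YEATS domains. It sits on the nucleosomes beside the start sites of active genes. Gut microbes are known to reach the epithelium through pattern recognition, cytokines of nearby immune cells and metabolites such as short-chain fatty acids, some of which inhibit deacetylases. Enterocytes, the absorptive cells that dominate this epithelium, carry digestive enzymes and nutrient transporters on their brush border and can present antigen on MHC molecules.

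Each library was a list of called intervals, so the data say where the mark passed a library's threshold and not how much of it there was elsewhere. The lists held 4430 and 17094 intervals in GF replicates 1 and 2, and 3117 and 15352 in CNV replicates 1 and 2, so each group had 1 short and 1 long list. Background pileup, in extended reads per base, was estimated at 0.733, 0.579 (inferred from fold values), 0.413 and 0.381 in the same order. A fold is the pileup plus 1 over this background plus 1. The weakest interval in a list had a fold of 4.04, 3.80, 4.25 and 3.62, which corresponds to a pileup of 6, 5, 5 and 4. A promoter without an interval may carry weaker enrichment. Of 12 epithelial markers, including Epcam, Vil1, Cdx2 and Hnf4a, 11 had a promoter interval in each short list (Krt20 was missing in GF replicate 1 and Krt18 in CNV replicate 1) and 12 in each long one. The defining markers of immune cells (Ptprc, Cd3e, Cd79a, Itgam) and of stroma (Col1a1, Pecam1, Acta2, Sox10) had none in any of the 4.

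Promoters that separated the groups were few. A gene was counted as marked where an interval tied to it lay within 1 kb of its start site, and 8090 of 21900 protein-coding genes were marked in at least 1 of the 4 libraries. Both CNV libraries and neither GF library marked 64 genes, which is 0.292% of those examined and 3.25% of the 1968 genes marked in both CNV libraries. Both GF libraries and neither CNV library marked 55, which is 0.251% of those examined and 2.47% of the 2226 marked in both GF libraries. All 4 libraries marked 1202 genes (5.49%).

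Espn, the actin-bundling protein of microvilli, led the first set, whose first 15 also held the transcription and chromatin regulators Cebpd, Mta1 and Zfp281. Cdkl2, a protein kinase, and Nek8, a kinase of the primary cilium, led the second. To show what kind of promoter stood on each side, sequences are printed for Espn, for the promoter that Tap1 shares with Psmb9, and for the genes whose strongest intervals in both libraries of the group overlap the printed window: the highest-ranked of 5 such CNV-only genes (Tnfaip8l3) and the nutrient transporter Slc6a20a among them, and all 3 such GF-only genes. Each window runs 5′ to 3′ on the gene's strand from 250 bases before to 50 bases after the start site (RefSeq, GRCm38.p6). Espn, Tap1 and Slc6a20a were chosen by name, and the strongest intervals of Espn and Tap1 lie outside their printed windows. Capitals mark, on either strand, matches to the GC box, the CCAAT box, the TATA box and the core of the ETS site. The letters are given after the sequences.
Espn, CNV-only, chr4:152128876-152129175, minus strand: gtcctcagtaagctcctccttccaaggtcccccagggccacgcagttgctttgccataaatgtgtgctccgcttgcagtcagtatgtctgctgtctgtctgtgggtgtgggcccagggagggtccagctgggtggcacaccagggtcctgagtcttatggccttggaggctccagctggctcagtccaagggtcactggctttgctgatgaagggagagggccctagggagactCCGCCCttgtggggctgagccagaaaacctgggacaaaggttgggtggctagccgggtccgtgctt
Tap1 and Psmb9 (shared), CNV-only, chr17:34187306-34187605, plus strand: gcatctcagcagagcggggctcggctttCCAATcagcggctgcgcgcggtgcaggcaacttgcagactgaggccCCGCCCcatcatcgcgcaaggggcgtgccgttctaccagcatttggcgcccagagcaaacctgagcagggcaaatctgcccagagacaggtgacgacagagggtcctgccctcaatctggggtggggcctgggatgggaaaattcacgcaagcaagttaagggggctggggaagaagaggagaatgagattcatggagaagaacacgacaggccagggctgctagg
Tnfaip8l3, CNV-only, chr9:54068362-54068661, minus strand: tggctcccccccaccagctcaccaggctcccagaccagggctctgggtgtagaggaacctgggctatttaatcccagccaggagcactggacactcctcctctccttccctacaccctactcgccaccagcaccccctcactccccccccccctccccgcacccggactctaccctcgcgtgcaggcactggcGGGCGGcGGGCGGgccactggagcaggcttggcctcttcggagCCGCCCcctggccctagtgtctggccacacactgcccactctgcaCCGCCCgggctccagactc
Slc6a20a, CNV-only, chr9:123678783-123679082, minus strand: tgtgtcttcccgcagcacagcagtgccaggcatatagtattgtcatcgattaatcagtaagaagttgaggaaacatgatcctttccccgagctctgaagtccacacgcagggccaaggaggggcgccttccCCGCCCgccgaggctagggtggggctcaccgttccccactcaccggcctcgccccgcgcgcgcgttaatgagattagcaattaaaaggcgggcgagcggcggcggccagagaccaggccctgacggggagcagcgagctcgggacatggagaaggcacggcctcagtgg
Cdkl2, GF-only, chr5:92042993-92043292, minus strand: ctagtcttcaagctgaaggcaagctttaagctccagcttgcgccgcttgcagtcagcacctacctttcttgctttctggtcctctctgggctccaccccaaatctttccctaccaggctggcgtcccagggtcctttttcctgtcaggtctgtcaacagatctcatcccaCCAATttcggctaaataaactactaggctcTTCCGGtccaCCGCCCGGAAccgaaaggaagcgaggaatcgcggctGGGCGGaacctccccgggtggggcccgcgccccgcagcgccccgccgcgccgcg
Nek8, GF-only, chr11:78176617-78176916, minus strand: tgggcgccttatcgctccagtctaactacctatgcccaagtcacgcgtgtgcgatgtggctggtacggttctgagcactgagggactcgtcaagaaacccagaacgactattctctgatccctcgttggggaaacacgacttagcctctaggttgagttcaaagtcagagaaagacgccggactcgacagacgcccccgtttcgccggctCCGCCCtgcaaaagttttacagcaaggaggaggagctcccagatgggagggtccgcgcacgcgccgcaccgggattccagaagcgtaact
Rps28 and Ndufa7 (shared), GF-only, chr17:33824513-33824812, minus strand: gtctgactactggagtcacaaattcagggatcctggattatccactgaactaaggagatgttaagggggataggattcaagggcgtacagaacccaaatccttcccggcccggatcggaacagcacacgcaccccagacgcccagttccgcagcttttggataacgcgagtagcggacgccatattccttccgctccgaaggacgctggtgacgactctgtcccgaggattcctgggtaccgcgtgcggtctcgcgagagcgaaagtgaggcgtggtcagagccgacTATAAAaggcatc

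These windows differ in base composition. For the shared promoters the windows printed are those of Tap1 and Rps28, while Psmb9 and Ndufa7 have windows of their own that are not printed. Espn held 5 CpG dinucleotides in its 300 bases, for an observed-to-expected CpG ratio of 0.18, and Tap1 held 15 for a ratio of 0.55. Tnfaip8l3 stood at 0.40 and Slc6a20a at 0.86, while Cdkl2, Nek8 and Rps28 stood at 0.82, 1.003 and 1.01. The CNV-only genes Pomt2 and Pno1, which met the same overlap rule but are not printed, stood at 0.90 and 0.79. Over the 53 CNV-only genes with a window in the table the median ratio was 0.70, with quartiles of 0.40 and 0.89. The 50 GF-only genes with a window had a median of 0.81, with quartiles of 0.65 and 0.99. Genes marked in all 4 libraries had a median of 0.84 (973 windows), and all protein-coding genes one of 0.59 (17492 windows). These ratios are given as a description, without a test, and the 2 sets overlapped widely.

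Of 7 short motifs searched, the GC box was the most frequent on both sides. The GC box, searched as GGGCGG, lay in 38 of 53 CNV-only (71.7%) and 31 of 50 GF-only windows (62.0%). It lay in 46.9% of all promoter windows, but in 69.5% of the windows of genes marked in any of the 4 libraries. The ETS core, searched as CCGGAA, was found in 13 and 17 windows (19.4% of all). The box that binds NF-Y, searched by the 5 letters of its name, was found in 22 and 24 windows (39.0% of all). The TATA box, searched as TATAAA, was found in 4 and 6 windows (13.3% of all). The cyclic AMP response element (TGACGTCA) was in 1 and 4 (2.36% of all), and an interferon response element core (GAAANNGAA) in 1 and 5 (8.23%). A stretch of the HNF4 site (CAAAGTCC) was in 1 and 0 windows (1.45% of all). Among the 6514 windows of genes marked in any of the 4 libraries, the ETS core lay in 34.6% and the NF-Y box in 37.1%. There the TATA box lay in 6.14%, the cyclic AMP element in 3.64%, the interferon core in 6.77% and the HNF4 stretch in 1.43%. In the Cdkl2 window 1 GC box and 1 ETS core share bases. Both strands were searched, and the letters alone do not show a bound site.

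Beyond the combinations named, most marked genes followed the length of the lists. The plot of genes by combination of libraries shows 2807 genes marked in both long lists alone, 1346 in CNV replicate 2 alone and 770 in GF replicate 2 alone. The short lists lay inside the long ones of either group: of the 2408 genes marked in GF replicate 1, 92.4% were marked in GF replicate 2 and 95.5% in CNV replicate 2. Of the 1989 marked in CNV replicate 1, 98.9% were marked in CNV replicate 2 and 95.1% in GF replicate 2. Genes marked in GF replicate 1 and CNV replicate 2 but in neither other library numbered 105, and those in GF replicate 2 and CNV replicate 1 alone 12, so combinations that cross the groups bracket the 64 and 55.

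**Figure D1:**
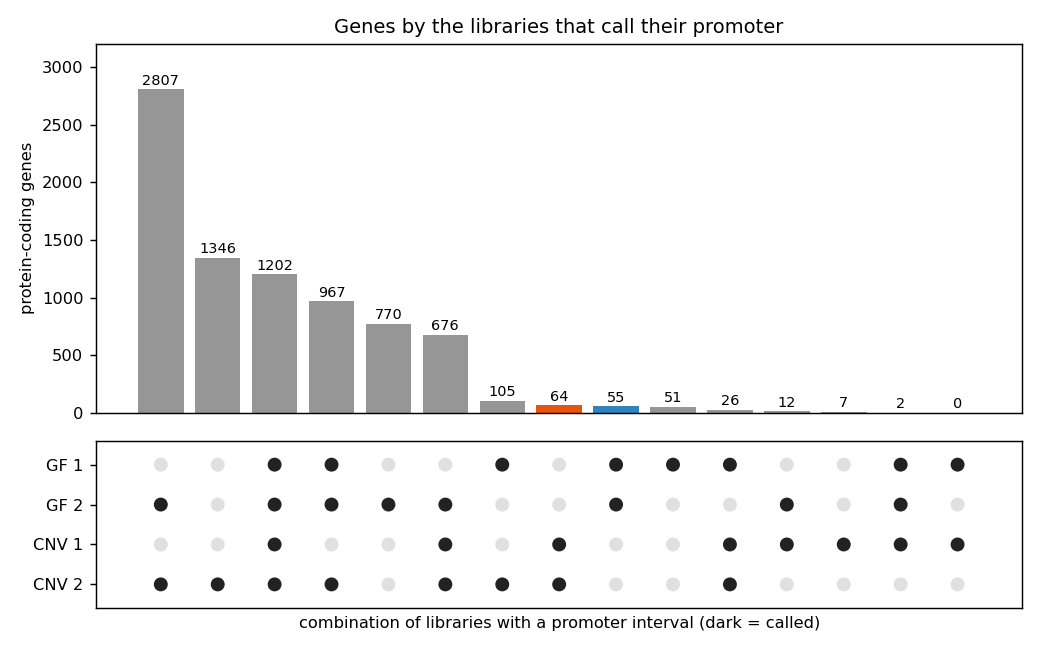
Number of protein-coding genes (bars) for each combination of libraries with a promoter interval (dark dots below). The 64 CNV-only genes (orange) and the 55 GF-only genes (blue) are small beside the 2807 genes marked in both long lists alone and the 1202 marked in all 4 libraries.

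Called promoters of the CNV-only set were moderate within their own lists. Their strongest intervals had a median fold of 4.95 in CNV replicate 1 and 5.79 in CNV replicate 2, against 5.66 and 6.52 over all genes marked there, and 17 of 64 stood at the lowest fold of CNV replicate 1. In 48 of the 64 the strongest intervals of both libraries overlapped, and 5 had a GF interval within 5 kb of the start site though none within 1 kb. The centre of the strongest interval lay a median of 392 and 325 bp downstream of the start site. GF-only genes had medians of 5.19 in GF replicate 1 and 5.70 in GF replicate 2, against 5.77 and 6.33 over all marked genes, and their intervals overlapped in 42 of 55. An E. coli library marked 6 of the 64 and 2 of the 55, against 617 of the 1202 genes marked in all 4. The E. coli lists were shorter than any of the 4, with 1988 and 870 intervals that marked 921 and 409 genes. A missing call there, at moderate promoters like these and throughout the text, therefore carries little weight.

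Among CNV-only genes, the strongest call was at Espn. Its interval stood at 8.49-fold in CNV replicate 1 and 11.6-fold in CNV replicate 2, at chr4:152128455-152128782 and chr4:152128449-152128813, just downstream of the start site. No GF or E. coli library called it, and it kept the pattern under all 5 changes tried gene by gene (a −log10 q or a fold of at least 5, a window of 2.5 kb, 200 bp of overlap, and equal-length lists). Next in rank was Ttyh3, of the tweety family of membrane channels, at 7.78-fold and 6.52-fold. Cebpd, a transcription factor of acute-phase and inflammatory responses, had 6.37-fold and 7.97-fold intervals, and a GF interval lay within 5 kb of its start.

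The next genes in rank are given by what they encode. Slc7a7 encodes the light subunit of the basolateral exporter of cationic amino acids. Both CNV libraries called it at chr14:54409000-54409445 (6.37-fold and 6.52-fold) and at chr14:54408593-54408918 (6.37-fold and 4.35-fold). A GF interval lay within 5 kb of its start. Lrp1, an endocytic receptor of the LDL receptor family, was at 5.66-fold and 9.41-fold. Chp2, a calcineurin-like cofactor of sodium-proton exchangers, was at 5.66-fold and 8.69-fold and was also called in 1 E. coli library. Tnfaip8l3, a carrier of lipid second messengers, had the same folds of 5.66 and 8.69. The ER membrane protein Ncln (6.37-fold and 6.52-fold) and the synaptotagmin Syt12 (5.66-fold and 10.1-fold) were each also called in 1 E. coli library. Smlr1 (5.66-fold and 10.1-fold), Adck5 (5.66-fold and 9.41-fold) and the predicted gene Gm8909 (5.66-fold and 7.24-fold) had no call in an E. coli library.

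Mta1, Ago1 and Zfp281 were the other 3 of the first 15. Mta1, a subunit of the NuRD deacetylase complex, had 6.37-fold and 5.79-fold intervals. Ago1, an Argonaute protein of small RNA silencing, was at 4.95-fold and 9.41-fold, and the zinc finger factor Zfp281 at 5.66-fold and 6.52-fold. Cdkn2b and H3f3b were of lower rank and chosen after their values were seen. Cdkn2b, an inhibitor of cyclin-dependent kinases, was at 4.95-fold and 8.69-fold, and H3f3b, which encodes histone H3.3, at 5.66-fold and 5.07-fold. The strongest H3f3b intervals did not overlap, and a GF interval lay within 5 kb of its start.

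Members of the gene lists made up 14 of the 64 CNV-only genes (21.9%) and 1 of the 55 GF-only genes (1.82%). They made up 10.3% of the genes marked in all 4 libraries and 6.22% of those marked in any of them. As the lists were chosen with earlier results of these data known, this direction is not independent evidence. From the brush border list of 38 genes, 5 were CNV-only: Espn, Slc7a7, Sis, Slc6a20a and Mep1b. Sis, which encodes sucrase-isomaltase, and Slc6a20a, an imino acid transporter, had equal folds of 4.25 in CNV replicate 1 and 5.79 in CNV replicate 2. Mep1b, the beta subunit of the brush border protease meprin, was at 5.66-fold and 4.35-fold, in intervals that did not overlap. The 4.25-fold calls are the weakest that CNV replicate 1 holds. Of the 5 changes tried gene by gene, Slc7a7 kept the pattern under 4, Slc6a20a and Mep1b under 2 and Sis under 0, and Sis had a GF interval within 5 kb of its start.

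Antigen presentation gave 3 more CNV-only genes. H2-Ab1, the beta chain of an MHC class II molecule, had intervals of 4.95-fold and 7.24-fold. Tap1, a subunit of the peptide transporter, and Psmb9, a subunit of the immunoproteasome, share a promoter that both CNV libraries called at 4.95-fold and 3.62-fold, on opposite sides of the start site. They therefore count as 1 place. Single members of other lists included Lrig1, a restraint on growth factor receptors and a stem cell marker (4.25-fold and 6.52-fold), Mavs, the adaptor of RNA sensors (4.25-fold and 5.07-fold), and Fcgbp, a mucus protein (4.95-fold and 4.35-fold). Both GF libraries had an interval within 5 kb of the Lrig1 start. At Mavs and Fcgbp the strongest intervals of the CNV libraries did not overlap. H2-Ab1 kept the pattern under 2 of the 5 changes, Tap1, Psmb9, Mavs and Fcgbp under 1 and Lrig1 under 0.

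**Figure D2:**
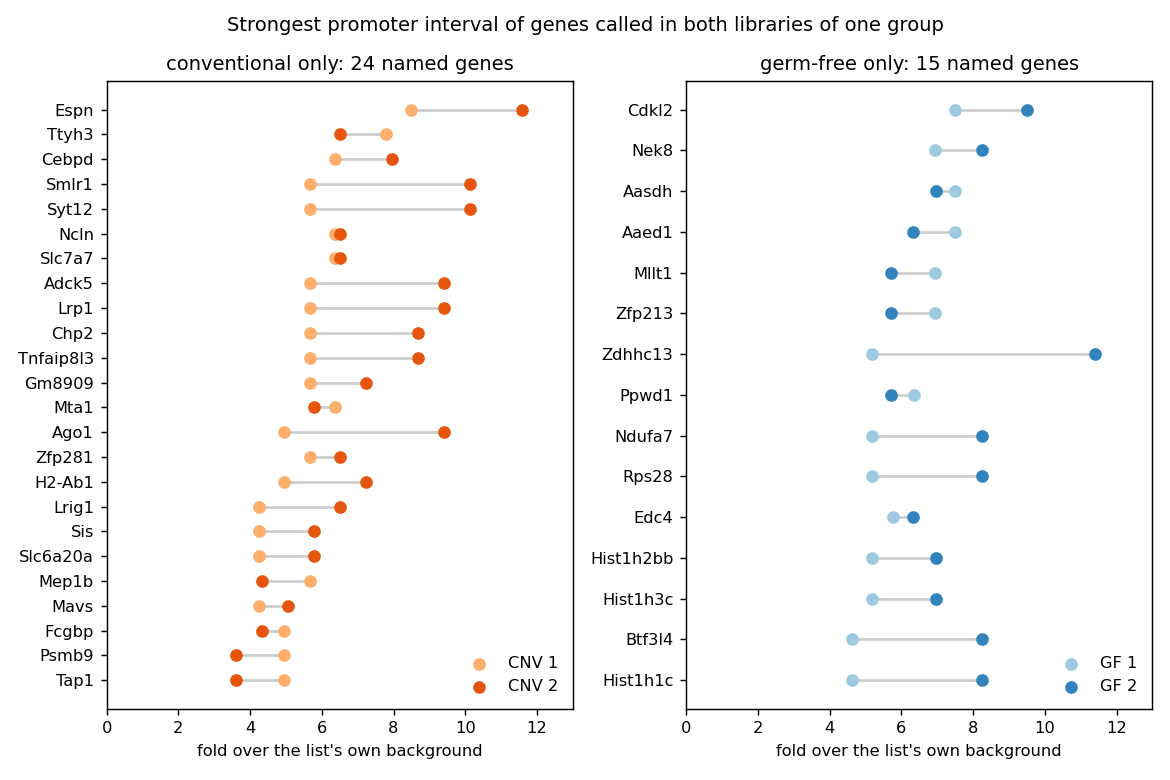
Fold of the strongest promoter interval over each library's own background for the named CNV-only genes (left) and GF-only genes (right), 1 point per library joined by a grey line. Espn (8.49 and 11.6) leads on the left and Cdkl2 (7.50 and 9.50) on the right. Folds are ratios to each library's own background and are not amounts compared between lists.

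On the GF-only side, Cdkl2 stood at 7.50-fold in GF replicate 1 and 9.50-fold in GF replicate 2, and Nek8 at 6.93-fold and 8.24-fold. No CNV or E. coli library called either, and both kept the pattern under all 5 changes. Aasdh (7.50-fold and 6.97-fold), Aaed1 (7.50-fold and 6.33-fold) and the zinc finger gene Zfp213 (6.93-fold and 5.70-fold) came next. At Aasdh and Zfp213 the strongest intervals of the GF libraries did not overlap. Mllt1, a YEATS-domain reader of acetylated histone H3 that serves transcription elongation, was at 6.93-fold and 5.70-fold and was the single list member. The palmitoyltransferase gene Zdhhc13 was at 5.19-fold and 11.4-fold.

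The rest of the named GF-only genes included ribosomal, RNA turnover and histone genes. The shared promoter of Rps28, a ribosomal protein gene, and Ndufa7, a complex I subunit gene, was called at 5.19-fold and 8.24-fold. Edc4, the scaffold of mRNA decapping, was at 5.77-fold and 6.33-fold, and Btf3l4 at 4.62-fold and 8.24-fold. In the histone cluster of chromosome 13, the shared promoter of Hist1h2bb and Hist1h3c was at 5.19-fold and 6.97-fold. The linker histone gene Hist1h1c was at 4.62-fold and 8.24-fold, in intervals that did not overlap. It kept the pattern under 0 of the 5 changes. A CNV interval lay within 5 kb of the start of Hist1h1c and of Btf3l4. Histone genes are near copies of one another, so reads there can be misassigned. Ppwd1, a peptidyl-prolyl isomerase gene (6.35-fold and 5.70-fold), shares its promoter with Cenpk, and a CNV interval tied to another gene lay within 1 kb. Chosen after their values were seen, Fh1 (5.19-fold and 5.70-fold) encodes a citric acid cycle enzyme, and Rpl24 (4.62-fold and 5.07-fold) another ribosomal protein. At Ppwd1 and Fh1 the strongest intervals did not overlap.

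Which genes carry either pattern depended on the threshold. Of the 64, 24 kept the pattern under at most 1 of the 5 changes, as did 24 of the 55. At a −log10 q of at least 5 the counts were 79 and 51, and 5 of the 64 and 4 of the 55 were among them. At a fold of at least 5 the counts were 47 and 58, with 20 and 25 shared. Leaving out 1 library moved the counts far more, to between 71 and 1410 for CNV-only and between 57 and 1022 for GF-only genes.

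Library by library, brush border genes were marked more often in CNV than in GF libraries, with no overlap of the groups. Of 38 hydrolases, transporters and microvillus genes, 15 were marked in GF replicate 1, 16 in GF replicate 2, 18 in CNV replicate 1 and 32 in CNV replicate 2. Over all protein-coding genes these shares were 11%, 29.6%, 9.08% and 32.8%. Between the 2 long lists, 16 brush border genes were marked in CNV replicate 2 and not in GF replicate 2, and 0 the other way. Over all genes 1541 (7.04%) and 839 (3.83%) fell in these classes. Between the 2 short lists, 7 were marked in CNV alone and 4 in GF alone, beside 759 (3.47%) and 1178 (5.38%) of all genes. The list was chosen with earlier results of these data known, so its direction is not independent evidence.

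Members of the list ranged from calls in 1 library to calls in all 4. Alpi, intestinal alkaline phosphatase, was called in CNV replicate 2 alone, at 7.97-fold. So were Mep1a (6.52-fold), the trehalase gene Treh (4.35-fold) and the anion and monocarboxylate transporter genes Slc26a3, Slc16a1 and Slc5a8 (5.07-fold each). Mgam, which encodes maltase-glucoamylase, was called at 4.62-fold in GF replicate 1 and 5.07-fold in CNV replicate 2. Of the 38, 11 members were called in all 4 libraries. Among these Vil1, which encodes the actin bundler villin, stood at 10.4-fold, 13.9-fold, 10.6-fold and 15.9-fold in the GF and then the CNV libraries. Ezr, the gene of the membrane linker ezrin, stood at 5.77-fold, 16.5-fold, 6.37-fold and 10.1-fold. Slc1a1, a glutamate transporter gene, was called in GF replicate 1 alone (4.04-fold).

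MHC genes were called most in CNV replicate 2, though GF replicate 2 exceeded CNV replicate 1 and the groups overlapped. Of 12 class II genes 2, 4, 3 and 10 were marked in GF replicates 1 and 2 and CNV replicates 1 and 2. Over all protein-coding genes the shares in that order were 11%, 29.6%, 9.08% and 32.8%, also highest in CNV replicate 2. Cd74, the invariant chain gene, Ciita, the master activator of the class, and H2-Aa, an alpha chain gene, were called in CNV replicate 2 alone, at 8.69-fold, 7.97-fold and 7.97-fold. H2-DMa, the peptide-exchange factor, was called in all 4. Of 20 class I and immunoproteasome genes 6, 13, 8 and 17 were marked. B2m, the common light chain, was called at 6.35-fold and 4.43-fold in the GF and 6.37-fold and 10.1-fold in the CNV libraries. Psmb8, an immunoproteasome subunit gene, and the class I gene H2-Q2 were called in CNV replicate 2 alone (9.41-fold and 10.1-fold). Class I genes are near copies of one another, so single members are uncertain. Professional antigen-presenting cells also express class II genes, and of 34 immune cell markers 1, Laptm5, was called in CNV replicate 2 (4.35-fold) and 0 in the other 3 libraries, with Ptprc, Cd79a and Itgam at 0 throughout. Their part in the class II calls was not tested.

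**Figure D3:**
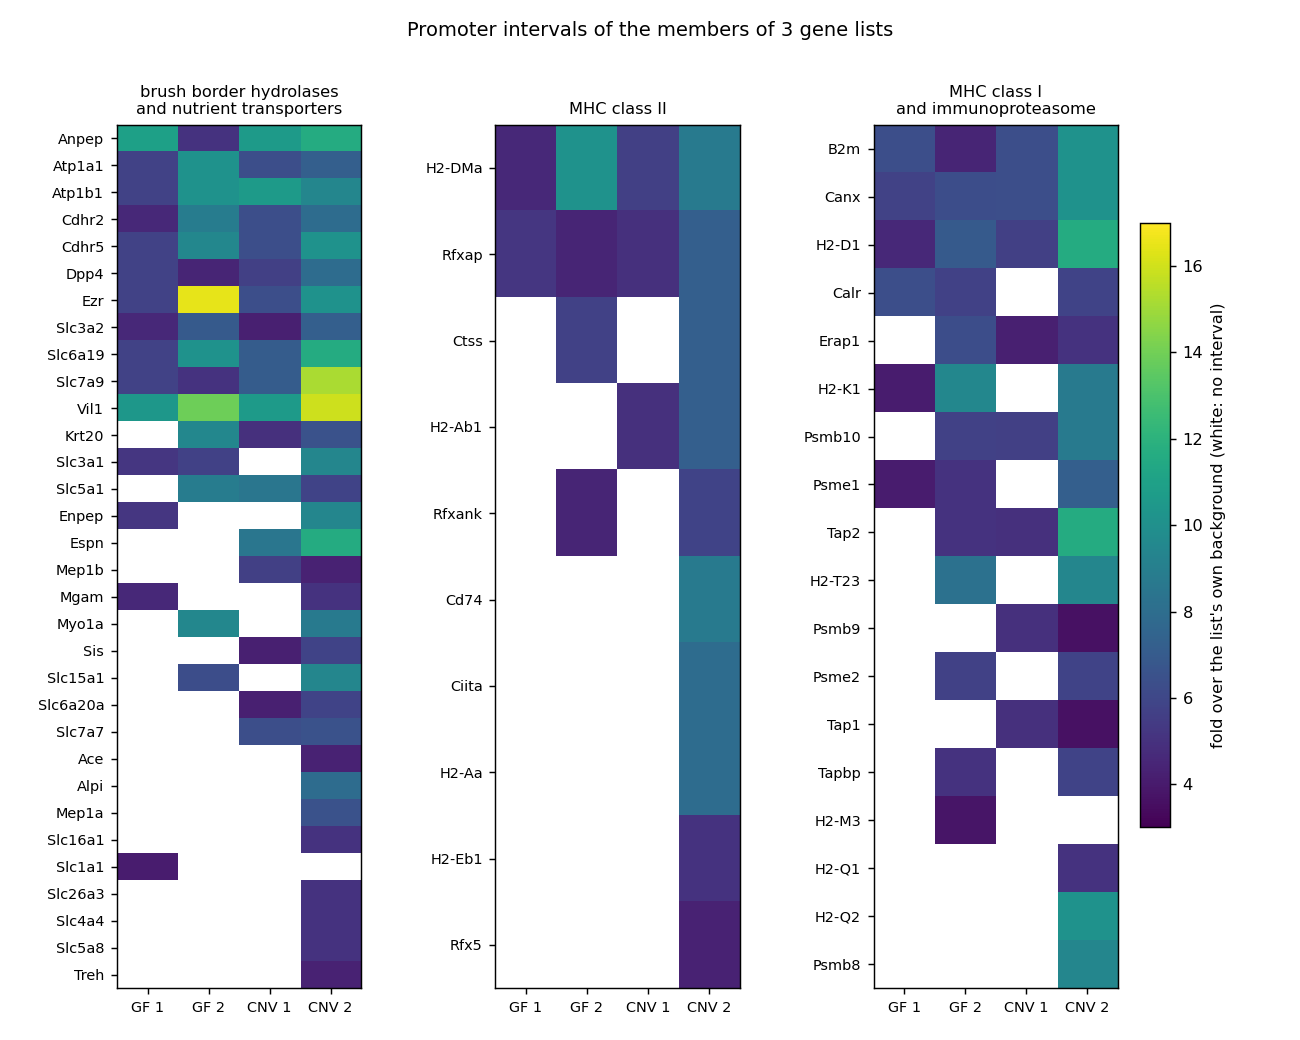
Promoter intervals of brush border genes (left), MHC class II genes (middle) and MHC class I and immunoproteasome genes (right) in the 4 libraries, colored by fold over the list's own background, with white for no interval. Members with no interval in any of the 4, and any not reported here, are not drawn. CNV replicate 2 calls 32 of 38, 10 of 12 and 17 of 20 genes, more than any other library.

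Ribosomal and respiratory genes took another order than brush border genes. Of 39 genes for ribosomal proteins and translation factors 19 and 37 were marked in the GF libraries and 8 and 37 in the CNV libraries. GF replicate 1 marked 15 that CNV replicate 1 did not, and CNV replicate 1 marked 4 that GF replicate 1 did not, while the long lists differed by 1 gene each way. Rps14 (6.93-fold in GF replicate 1) was among those missing from CNV replicate 1. Over all genes, 1178 (5.38%) were marked in GF replicate 1 and not in CNV replicate 1, and 759 (3.47%) the other way. Of 39 respiratory chain and ATP synthase genes 25, 31, 17 and 36 were marked. Heat shock and chaperone genes followed the same order, with 16, 19, 8 and 23 of 29. The short lists thus differed toward GF and the long lists toward CNV for both of these groups. All protein-coding genes took that order too, at 11%, 29.6%, 9.08% and 32.8%, so it is not particular to these groups.

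Clock genes and chromatin regulators were counted in the same way, beside all-gene shares of 11%, 29.6%, 9.08% and 32.8%. Between the long lists, 839 of all genes (3.83%) were marked in GF replicate 2 and not in CNV replicate 2. The reverse held for 1541 (7.04%). Of 22 circadian clock genes 17 were marked in GF replicate 2 and 12 in CNV replicate 2, and 5 and 4 in the short lists. The clock repressor genes Per1, Per2 and Per3 were called in GF replicate 2 alone, with Per2 at 10.8-fold, and Arntl, which encodes the activator BMAL1, in CNV replicate 2 alone (5.79-fold). No label gives the time of day of collection, so its part was not tested. Of 28 deacetylase and corepressor genes 5, 15, 3 and 21 were marked, and Hdac1 and Sin3a were called in CNV replicate 2 alone. Hdac3, a deacetylase of the NCoR complex, was called in both long lists, at 5.70-fold in GF replicate 2 and 4.35-fold in CNV replicate 2. Of 25 acetyltransferase and reader genes 7, 19, 4 and 16 were marked, with Ep300 called in all 4.

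In the full lists the brush border was the 1 list of 27 whose counts did not overlap between the groups. The counts here and in the next paragraph stand beside all-gene shares of 11%, 29.6%, 9.08% and 32.8%. Transcription factors of the intestine were marked in 16, 29, 17 and 26 of 34, and junction genes in 25, 30, 20 and 29 of 34. Genes of Toll-like receptor and NF-kB signalling were marked in 14, 21, 10 and 22 of 32, and interferon receptor and JAK-STAT genes in 9, 15, 10 and 17 of 20. Among 38 antimicrobial and mucosal defence genes 9, 11, 8 and 15 were marked. Duox2 and Duoxa2, which make hydrogen peroxide at the epithelial surface, were called in CNV replicate 2 alone (6.52-fold each).

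In the same order of libraries, RNA and DNA sensor and interferon-stimulated genes were marked in 7, 14, 3 and 17 of 30. Lipid absorption and nuclear receptor genes were marked in 11, 26, 12 and 28 of 38, bile acid transport genes in 3, 4, 3 and 4 of 10, and xenobiotic response and antioxidant genes in 4, 16, 7 and 19 of 29. Inositol phosphate genes were marked in 5, 14, 5 and 13 of 23, and immediate early and MAP kinase genes in 15, 31, 14 and 32 of 35. Stem cell and Wnt genes were marked in 3, 12, 6 and 15 of 26, proliferation genes in 2, 12, 2 and 11 of 32, and goblet cell genes in 2, 10, 2 and 8 of 21. Of 21 enteroendocrine and tuft cell genes 1, the secretin gene Sct, was marked, in CNV replicate 2 alone (5.07-fold). Neither the 11 Paneth cell genes nor the 30 genes of stroma, endothelium, muscle and nerve were marked in any of the 4 libraries.

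**Figure D4:**
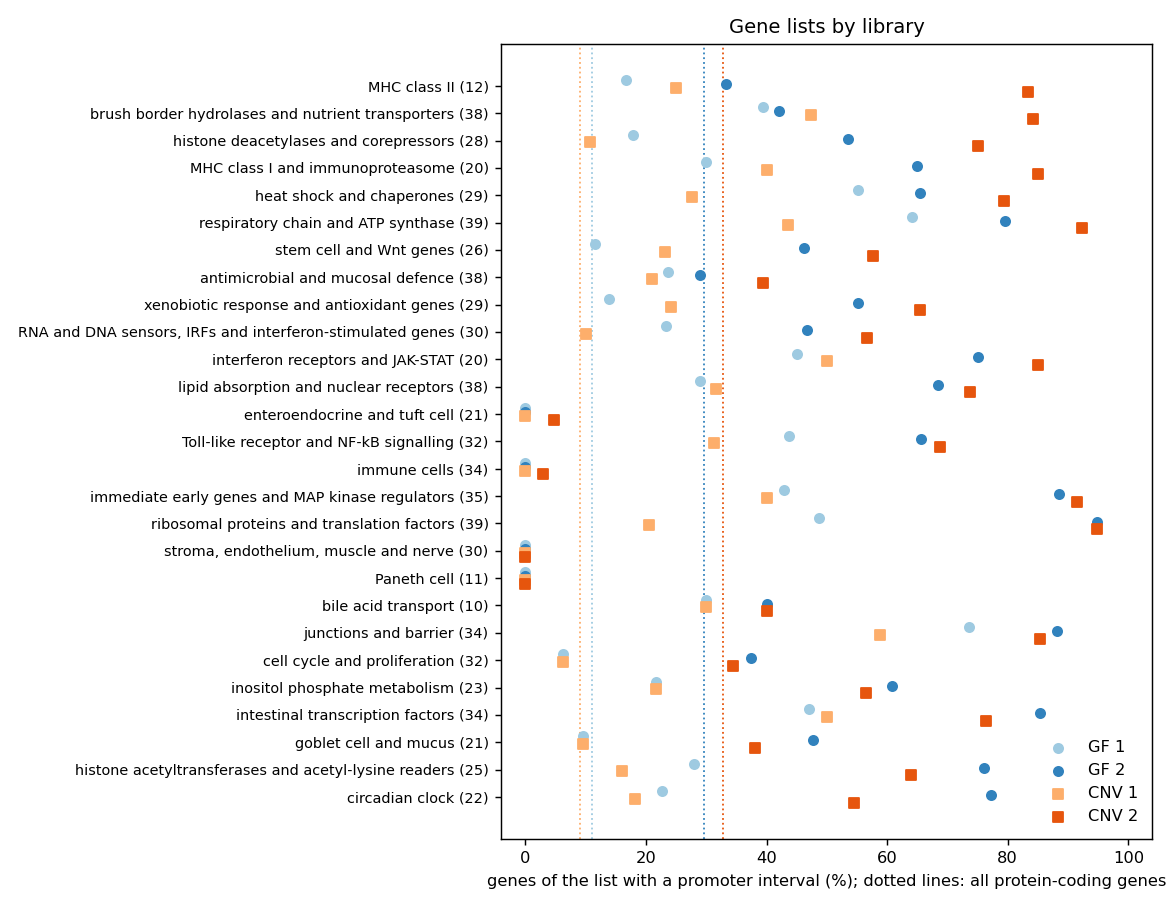
Percent of each gene list (number of genes in parentheses) with a promoter interval in each of the 4 libraries, drawn with a small vertical offset per library and ordered by the difference between the long lists. Dotted lines give the share over all protein-coding genes, 11%, 29.6%, 9.08% and 32.8%. MHC class II and brush border genes stand at the top, with CNV replicate 2 at 83.3% and 84.2%, and circadian clock genes at the bottom.

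Genes missing from a single list were chosen after their values were seen. Only CNV replicate 1 was missing for 967 genes and only GF replicate 1 for 676. There were 26 genes called in every library but GF replicate 2, and 2 in every library but CNV replicate 2 (Elac2 and Mtpap). The 26 included Pigr, the receptor that carries antibodies into the gut lumen, at 4.62-fold in GF replicate 1 and 7.08-fold and 10.1-fold in the CNV libraries. They also included the ileal bile acid binding protein gene Fabp6 (4.62-fold, 5.66-fold and 5.07-fold), and the nuclear receptor gene Nr1h3 (5.19-fold, 5.66-fold and 5.79-fold).

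At the other extreme, the highest genes called in all 4 libraries were Epc1, Sfi1, Ino80d, Cdx2, Zc3h4, Efcab2, Baz2b, Kmt2e, Mapk3 and Tnrc18. Epc1, a subunit of the NuA4 acetyltransferase complex, stood at 17.9-fold and 22.2-fold in the GF and 18.4-fold and 28.2-fold in the CNV libraries. Cdx2, the transcription factor of intestinal identity, stood at 13.3-fold, 14.6-fold, 14.2-fold and 22.4-fold in the same order.

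Lists were brought to equal length at 3117 intervals, which is the whole of the CNV replicate 1 list. That list therefore kept its weakest calls, down to 4.25-fold. The others were cut, and ended at 5.19-fold and 6.97-fold in GF replicates 1 and 2 and 7.24-fold in CNV replicate 2. With the 3117 most significant intervals of each library, 235 genes (1.07%) were in both CNV and neither GF list, and 117 (0.534%) in the reverse. These are differences in rank, since 217 of the 235 and 112 of the 117 were called in a full list of the other group. Espn was second of the 235. Rxra, the shared partner of nuclear receptors, ranked first: it was called at 9.91-fold and 14.5-fold in the CNV libraries and at 6.33-fold in GF replicate 2, below the 6.97-fold at which the cut list of that library ended. Sucla2, a citric acid cycle enzyme gene, Pdzd3, a scaffold gene of the brush border, Rab17, a GTPase gene of epithelial transport, and Nfyc, a subunit gene of the CCAAT-binding factor, were among the first 10. The others there were Aldh16a1 and Pih1d1, which share a promoter, the proteasome gene Psmd6 and the cytochrome oxidase gene Cox5b.

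Named by the lists, the 235 held 5 respiratory genes, among them Cox5b, Cyc1, Cox7a2 and Cycs, and 3 class I genes (H2-D1, Psmb10 and Tap2). Of the lipid list they held 4 genes, including Rxra and the sterol exporter pair Abcg5 and Abcg8, which share a promoter. Pigr, Slc51a, H2-Ab1, Espn, Esrra, Cebpd, Stat5b, Chd4, Ncoa3, Crebbp, Srxn1 and Gpx4 were further list members. By library, class I genes numbered 3 and 2 of 20 in the cut GF lists and 8 and 10 in the CNV lists. Class II genes numbered 1 and 1 against 3 and 7 of 12. Brush border genes numbered 11 and 11 against 18 and 17 of 38. For all 3 lists the groups did not overlap, but the CNV replicate 1 counts are those of its full list. At equal length, absence of overlap held for 7 of the 27 lists with CNV above GF and for 3 with GF above CNV. With 2 libraries against 2, a share of 0.333 of all ways to label 4 distinct values gives no overlap. These counts of lists are therefore a description and were not tested. The other 4 with CNV above were intestinal transcription factors (14 and 16 against 17 and 19), interferon receptor genes (7 and 9 against 10 and 10), xenobiotic response genes (2 and 6 against 7 and 8) and bile acid transport genes (2 and 1 against 3 and 3). Junction genes (23 and 26 against 20 and 19), sensor and interferon-stimulated genes (6 and 5 against 3 and 4) and the ribosomal list went the other way. Over all genes the equal-length lists marked 1810 and 2224 against 1989 and 2564, which do overlap.

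In the reverse direction the first 10 of the 117 included Ier2, Ankrd12, Cdkl2, Hcfc1, Hspa5, Ikbkb, F11r, Pip5k1b and Aven. Ier2, an immediate early gene, stood at 7.50-fold and 11.4-fold in the GF libraries and 5.79-fold in CNV replicate 2. Hspa5, the chaperone BiP of the endoplasmic reticulum, and Ikbkb, a kinase of NF-kB activation, both stood at 7.50-fold and 8.87-fold in the GF libraries. F11r, the junctional adhesion molecule gene, stood at 6.93-fold and 12.7-fold. Jup, Keap1, Sdhd and Rpl37 were further list members. At equal length the ribosomal list had 14 and 19 of 39 genes in GF and 8 and 13 in CNV libraries, with CNV replicate 1 uncut.

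Region classes were compared next. Promoters took 61.9% (95% Wilson interval 60.5 to 63.4) and 55.8% (55.1 to 56.5) of nuclear intervals in the GF libraries, and 73.0% (71.5 to 74.6) and 64.9% (64.1 to 65.6) in the CNV libraries. The means of 58.9% ± 4.34 (SD, n = 2) and 69.0% ± 5.79 (SD, n = 2) differed by 10.1 points, and the groups did not overlap. A two-sided exact permutation test gave p = 0.333, the smallest that 2 against 2 allows, and 0.762 after adjustment over 8 tests. In lists cut to equal length the shares were 63.6% and 74.7% against 73.0% and 83.4%, and the groups overlapped. Intergenic intervals took 12.4% and 9.65% in GF and 6.68% and 8.03% in CNV libraries, also without overlap (exact permutation p = 0.333, adjusted 0.762). The number of intervals differed by −0.33 on the log2 scale (exact permutation p = 0.667), well within the spread of the replicates. The Wilson intervals cover counting error only.

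**Figure D5:**
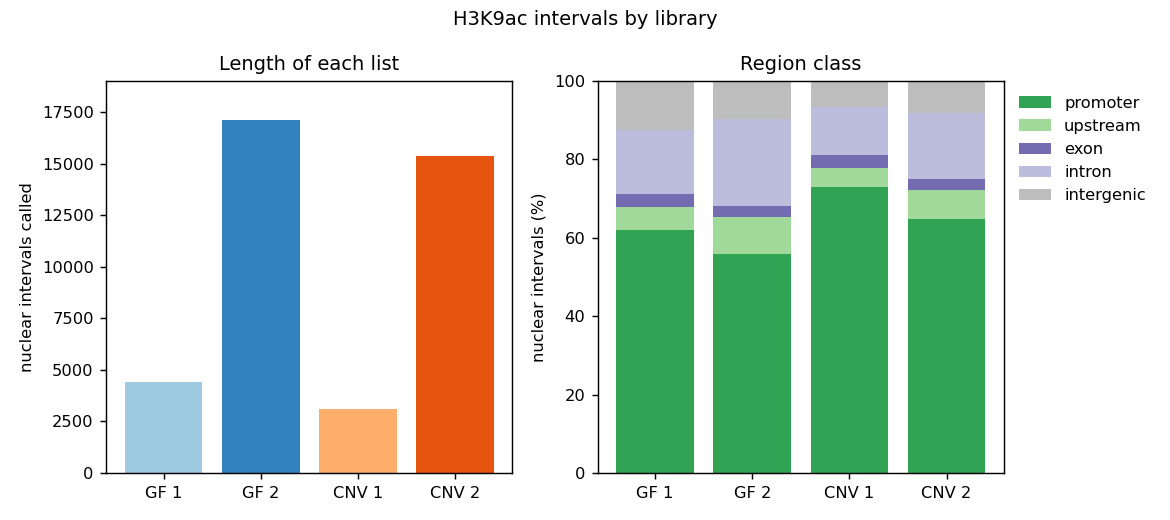
Number of nuclear intervals (left) and percent of them by region class (right) in the 2 GF and 2 CNV libraries. The lists run from 3113 to 17092 nuclear intervals, and the promoter share is 61.9% and 55.8% in GF and 73.0% and 64.9% in CNV libraries.

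Merged over the 4 lists, 23588 regions were called, of which 1380 were called in all 4. Both CNV and neither GF library called 147 regions (0.623%), and both GF and neither CNV library 184 (0.78%). Promoter regions made up 102 and 103 of these (0.816% and 0.824% of 12503 promoter regions). Introns held 19 CNV-only and 37 GF-only regions (0.354% and 0.690% of 5366). Intergenic space held 7 and 25 (0.259% and 0.924% of 2707). An E. coli library called 2 of the 45 CNV-only regions outside promoters and 19 of the 81 GF-only ones. The regions at Lmbrd1, Speer4d and A530032D15Rik described below, where read placement is uncertain, were among the 19. At promoters the direction was reversed, with 7 of the 102 CNV-only and 1 of the 103 GF-only regions. No share over all regions stands beside these E. coli counts, so they are a description only.

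The strongest CNV-only regions were mitochondrial. At M:9329-9564 the CNV libraries had intervals of 16.3-fold and 13.8-fold, and at M:9719-9937 intervals of 11.3-fold and 10.9-fold. All 6 libraries of the series called 2 long mitochondrial stretches on either side, and none of the GF or E. coli libraries called these 2 short ones. Mitochondrial DNA is not packaged with histones.

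The strongest GF-only regions were the reverse case in the nucleus. At chr1:24612983-24613249, intergenic and nearest to Lmbrd1, the GF libraries had 31.7-fold and 34.8-fold intervals, and at chr1:24612627-24612876 30.6-fold and 27.2-fold ones. Both E. coli libraries called both places, at 14.3-fold to 32.6-fold, and neither CNV library called either. This stretch of chromosome 1 is known as a nuclear copy of mitochondrial DNA, so short reads from one can be placed on the other. The part of read placement in either set of calls was not tested.

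The remaining named regions were nuclear. An interval upstream of Notch4, a receptor gene of cell fate choice (chr17:34548619-34549275), stood at 7.08-fold and 9.41-fold in the CNV libraries. Regions nearest to Gm9926 (7.08-fold and 7.97-fold), upstream of the glucocorticoid receptor gene Nr3c1 (5.66-fold and 10.9-fold) and upstream of Gm10033 (5.66-fold and 7.97-fold) followed. GF-only regions lay in an intron of Jarid2, which encodes a Polycomb cofactor (chr13:44869510-44869745, 6.93-fold and 15.2-fold), and upstream of Ache and Ufsp1 (chr5:137278019-137278880, 6.93-fold and 12.04-fold). Regions near Speer4d (9.81-fold and 10.8-fold) and in an exon of A530032D15Rik (12.7-fold and 5.70-fold) were called in both E. coli libraries too. Both genes belong to families of near copies, where the placement of reads is uncertain.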

How the data were processed

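H3K9ac ChIP-seq libraries of intestinal epithelial cells were compared between 2 germ-free and 2 conventionally housed samples, and the 2 E. coli-monoassociated libraries were used only to say whether a place was also called there. The submitters' processing notes name the mm10 build, MACS2 2.1.1.20160309 and Bowtie 1.2.0. They give no role or order, and input controls, calling options and the handling of multiply mapping reads were not stated in what was used here. Each deposited list held 1 library's intervals with the authors' pileup signal at the summit, the −log10 p-value, the fold as a ratio over background, and the −log10 q-value. Lines repeating an interval for another summit were merged. In the deposited list of germ-free replicate 2 the values stood against shifted header names, with no summit or pileup, and its columns were identified from the values.

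A protein-coding gene was marked where 1 or more of the intervals assigned to it by the authors reached into the 1 kb before or after the deposited start site. Of 10621 gene names 10567 matched RefSeq's table of GRCm38.p6 (the same assembly as mm10), and 54 did not. Regions were intervals of the 4 lists merged at 1 bp of overlap. Equal-length lists kept the 3117 most significant intervals of each library, with ties broken by interval length and then position. A rank is the percent of a library's intervals with a lower −log10 q. Shares and log2 interval numbers were compared by two-sided exact permutation of the 4 libraries, with Benjamini-Hochberg adjustment over 8 tests. Calls, never scores, were compared between libraries.

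Named were, in each direction, the 15 genes of highest mean rank, the 10 of the equal-length lists, the 6 regions outside promoters, every gene of 27 lists with the pattern, and the 10 highest genes called in all 4 libraries. The comparison, its rules and the lists were chosen with earlier results of these data known. Some genes that meet these rules are not reported here. The counting was tested on simulated lists. Promoter windows were taken from the RefSeq promoter table of GRCm38.p6. The replicate numbers were not taken as pairs: with 2 pairs, the differences of replicate 1 and 2 in both groups correlated at 0.03 over 8090 genes. Alternatives left out each library, raised the −log10 q or the fold to 5, changed the window, the overlap or the list length, or used all RefSeq genes. Computation used SciPy 1.17.1, NumPy 2.4.6 and pandas 2.3.3 under Python 3.11.15, with plots by matplotlib 3.10.9.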

Additional observations from a re-analysis of the deposited data

How the results depend on the processing

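Of 76 recomputed values, 47 stayed within 1.5 times or 1 SD, 27 moved and 2 reversed. Leaving out 1 library gave 71 to 1410 CNV-only and 57 to 1022 GF-only genes, 207 to 6426 and 206 to 8400 regions, and 409 to 790 and 198 to 578 genes of the equal-length lists, since a pattern over fewer libraries is easier to meet. The log2 interval number difference ran from −1.48 to 0.82, and turned to 0.64 without GF replicate 2 and 0.82 without CNV replicate 1. A −log10 q of at least 5 left 97 and 82 regions, and a fold of at least 5 left 92 CNV-only regions. Requiring 50% of the shorter interval to overlap gave 345 and 414 regions. GF-only genes fell to 30 with 200 bp of overlap, and the 1000 most significant intervals gave 79 and 40 genes. The promoter share difference stayed positive in all 9 alternatives. With the replicate number as a block that difference was 10.1 points (exact paired p = 0.5). Such a block can alter neither a count of calls nor a difference of means. The block values, counted among the 47 and the 9, were thus the same by construction and show no robustness. Alternatives added after seeing the data were any interval in the window whatever its gene, ties at the list end left out, and overlapping strongest intervals (64 and 53 genes, 228 and 93 genes of the equal-length lists, and 48 and 42 genes, in that order). With 2 libraries per group no test could pass the threshold (smallest exact p 0.333), and intervals below a fold of 3.62 to 4.25 are not in the lists.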
